A study of Caenorhabditis elegans with 6 samples.

Results

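The genes described here are 10 effectors of molting and of the apical extracellular matrix in Caenorhabditis elegans: noah-1, noah-2, fbn-1, let-653, mlt-8, mlt-9, mlt-10, mlt-11, nas-36 and nas-37. They were chosen by name and matched to WormBase gene identifiers, and all 10 were found among the 46911 genes counted in each library. RNA of whole L4 larvae was sequenced from strain VC295, which carries the allele ok613 of unc-30 on chromosome IV, and from N2, the wild type, with 3 libraries in each group. unc-30 encodes a homeodomain factor of GABAergic D-type motor neurons. Animals hatched from eggs laid over 3 hours on plates with E. coli OP50 and grew at 20 °C to the L4 stage, and the labels give no hour of harvest within it. The mutant group is 1 strain with 1 allele. The labels do not tie replicates to cultures of their own, and each p-value therefore rests on a spread among libraries that may be technical. Wild-type samples carry the mutant's genotype label too, so groups follow the strain label.

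C. elegans larvae replace their cuticle at each molt. Before the old cuticle is shed, the epidermis and other apical surfaces lay down a temporary pre-cuticle of zona pellucida (ZP) proteins and related proteins. Proteases then help to free the old cuticle, and protease inhibitors are secreted with them. Transcripts of many of these genes rise and fall once in each larval stage, in an order tied to the molt, so their level in a population depends on how far its animals are through that cycle.

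Total counts ran from 17318736 to 26377332 per library, and the lowest count of any of the 10 genes in a library was 65 (nas-36 in unc-30(ok613) replicate 1). Levels are given as CPM, counts set to a common library size by the trimmed mean of M-values (TMM), unless another scale is named. Wild type replicate 2 and unc-30(ok613) replicate 1 stood nearest to the other group for most of the 10 genes, so results are also given without them. As they were picked by the levels of these same genes, larger fold changes and more calls without them follow in part from the choice. The share of ribosomal RNA was lowest in wild type replicate 2 (0.394%) and ran from 3.84% to 12.7% elsewhere. Other mitochondrial transcripts took 1.72% to 2.43% of mutant counts against 0.862% to 1.28% of wild-type counts, and 17088 to 17525 genes had a count in mutant libraries against 18373 to 19477 in wild-type ones, without overlap in either measure. The part of these measures in the results was not tested. unc-30 itself did not pass the test (log2 fold change 0.88 ± 0.42, SE; edgeR adjusted p = 0.128). Which exons ok613 removes was not analysed here, so this level checks no label.

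In the comparison of the mutant with wild type, 9 of the 10 genes had a fitted log2 fold change above 0 and 1, nas-36, had one below 0. Only noah-2 (9.87-fold higher) and nas-36 (2.75-fold lower) passed the test across all genes, the quasi-likelihood F-test of edgeR with Benjamini-Hochberg adjusted p under 0.05. Across all 14506 genes tested, 38.0% passed, 17.1% as higher in the mutant and 20.9% as lower, so the 2 of 10 lay below the background. At an unadjusted p under 0.05, 8 of the 10 genes were higher and 1 lower, against 22.1% and 26.8% of all genes. The median log2 fold change of the 10 genes was 1.98, against -0.10 over all genes tested. The groups did not overlap for 8 of the 10 genes, against 52.6% of all genes tested. For 7 of them each mutant library lay above each wild-type library, for nas-36 each lay below, and for noah-1 and nas-37 the groups overlapped. Over all genes tested, 24.4% had every mutant library above every wild-type library and 28.2% had every one below. These separations are on the TMM scale. With scaling by total counts, the groups stayed apart only for noah-2 and fbn-1 (mutant above) and nas-36 (mutant below). The share of all genes on that scale is not given here. In whole animals, fewer cells that express a gene and less of its RNA per cell cannot be told apart.

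The number that passed depended on wild type replicate 2. The gain without it follows in part from picking that library by the levels of these genes. Without that library 8 of the 10 genes passed (41.2% of all genes), 7 as higher and 1 as lower (19.4% and 21.8%), and their median log2 fold change was 3.19. Without unc-30(ok613) replicate 1 alone, noah-2, mlt-8 and let-653 passed as higher and none as lower, where 39.6% of all genes passed (18.6% higher, 21.0% lower). None of the 10 passed the edgeR test without unc-30(ok613) replicate 2 or without replicate 3, where 9.42% and 9.01% of all genes passed as higher and 9.57% and 9.50% as lower. At an unadjusted p under 0.05 there were 5 and 3 of the 10, against 37.4% and 37.2% of all genes. Without wild type replicate 1, let-653 passed as higher and nas-36 as lower, where 13.3% and 17.5% of all genes did. Without wild type replicate 3, noah-2 and fbn-1 passed as higher and none as lower, where 10.9% and 12.9% of all genes did. Without both unc-30(ok613) replicate 1 and wild type replicate 2, 9 were higher and none lower, where 50.3% of all genes passed (23.7% higher, 26.6% lower), and nas-36 stood at -1.20 (edgeR adjusted p = 0.0757). Scaling by total counts moves the all-gene median from -0.10 to -1.11 on the log2 scale, and 59.8% of them passed, 3.43% as higher and 56.4% as lower. There noah-2 still passed as higher and nas-36 as lower, and the fold changes of let-653 and nas-37 became 0.11 and -0.04 on the log2 scale.

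**Figure D1:**
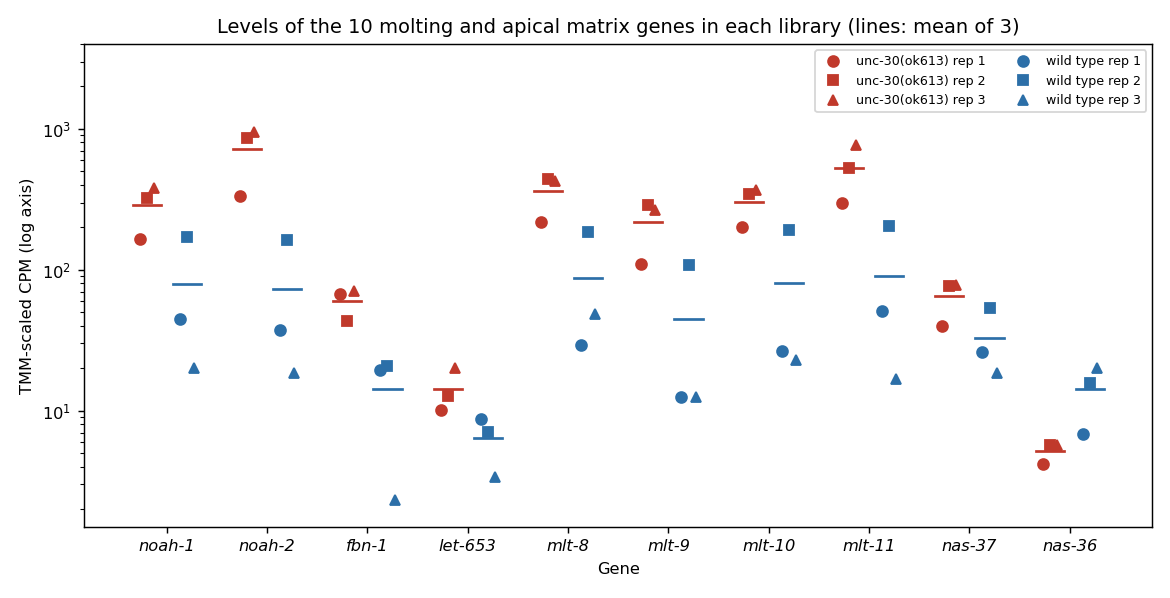
TMM-scaled CPM of each gene (log axis) in the 3 unc-30(ok613) libraries (red) and the 3 wild-type libraries (blue), with lines at the means and symbols for the replicate number. Wild type replicate 2 (blue squares) lies above the other wild-type libraries for 8 of the 10 genes, and nas-36 is lower in each mutant library than in each wild-type library.

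noah-1 and noah-2 encode large transmembrane matrix proteins with PAN/Apple and ZP domains, related to Drosophila NompA. noah-2 (WBGene00009926, chromosome IV, 14091254 to 14096626, plus strand, WBcel235) stood at 331, 867 and 949 CPM in the mutant, in order of replicate number, and at 37.2, 162 and 18.5 CPM in wild type. The lowest mutant library was thus above the highest wild-type library, and wild type replicate 2 was high for its group. The means were 716 ± 336 and 72.6 ± 78.1 CPM (SD, n = 3 each), and the log2 fold change was 3.30 ± 0.87 (SE; edgeR adjusted p = 0.0239). The call was lost without unc-30(ok613) replicate 2 (adjusted p = 0.0712) or 3 (0.0694) or wild type replicate 1 (0.0928), and without wild type replicate 2 the log2 fold change was 4.69 (0.00268).

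noah-1 (WBGene00016422, chromosome I, 5874416 to 5878958, minus strand) had 164, 323 and 383 CPM in the mutant and 44.9, 171 and 20.1 CPM in wild type. Wild type replicate 2 exceeded mutant replicate 1, so the groups overlapped. The log2 fold change of 1.88 ± 0.77 (SE) did not pass (edgeR adjusted p = 0.0925), and became 3.16 without wild type replicate 2 (0.00356). With any other single library left out noah-1 did not pass (edgeR adjusted p up to 0.254).

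The ratio of the NOAH genes, chosen after seeing the data, was higher in each mutant library than in each wild-type library. No scaling of libraries can change it, because both counts come from the same library. Counts of noah-2 were 2.02, 2.68 and 2.48 times those of noah-1 in the mutant libraries and 0.828, 0.947 and 0.917 times in the wild-type libraries. The ratio was therefore alike in all 3 wild-type libraries, including replicate 2, in which both genes were several times higher than in the others. Between the groups it differed 2.65-fold, by 1.41 on the log2 scale, with an SD of 0.21 in the mutant and 0.10 in wild type (n = 3 each). A two-sided exact permutation test gave p = 0.1, which is the smallest that 3 against 3 libraries allow, and 0.1 after adjustment over the 2 ratios tested. Groups of this size that do not overlap always give this value, so the test adds nothing to the separation already seen. Leaving out single libraries gave log2 differences of 1.32 to 1.53. Per kilobase of exon, noah-2 was 2.99 to 3.97 times noah-1 in the mutant and 1.22 to 1.40 times in wild type.

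**Figure D2:**
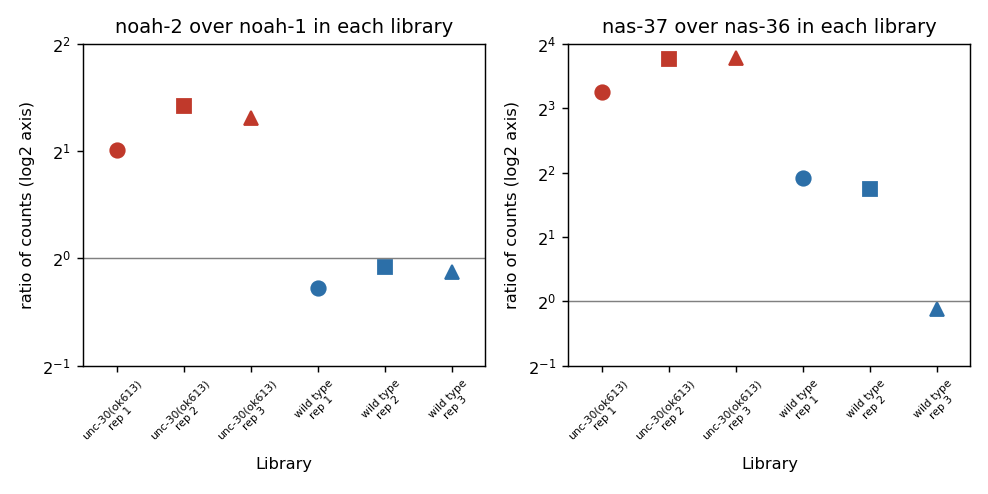
Ratio of counts of noah-2 to noah-1 (left) and of nas-37 to nas-36 (right) in each library, on a log2 axis, with a line at equal counts; red is unc-30(ok613) and blue wild type. The 3 mutant libraries lie above the 3 wild-type libraries in both panels, at 2.02 to 2.68 against 0.828 to 0.947 on the left and at 9.55 to 13.7 against 0.920 to 3.78 on the right.

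fbn-1 and let-653 encode further ZP-domain proteins of the apical matrix. fbn-1, a fibrillin-like gene (WBGene00022816, chromosome III, 7625386 to 7641078, plus strand), had 66.9, 43.6 and 70.7 CPM in the mutant and 19.5, 20.7 and 2.32 CPM in wild type. The groups did not overlap, but wild type replicate 3 stood far below the other libraries. Its log2 fold change was 2.09 ± 0.72 (SE; edgeR adjusted p = 0.0575), and 1.59 without wild type replicate 3, where it passed (0.0186). With any other single library left out fbn-1 did not pass (edgeR adjusted p up to 0.132). fbn-1 was the only one of the 10 genes for which mutant replicate 1 was not the lowest mutant library.

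let-653 shapes the matrix of narrow tubes such as the excretory duct and the vulva (WBGene00002827, chromosome IV, 11885613 to 11891082, plus strand). It had 10.1, 12.7 and 20.1 CPM in the mutant and 8.67, 7.12 and 3.38 CPM in wild type. The groups lay close to each other without overlap, and wild type replicate 2 was not the highest of its group. The log2 fold change was 1.16 ± 0.41 (SE; edgeR adjusted p = 0.0538). It passed without unc-30(ok613) replicate 1 (0.0363) or wild type replicate 1 (0.0400), and scaling by total counts removed most of it. With any other single library left out let-653 did not pass (edgeR adjusted p up to 0.185).

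The genes mlt-8, mlt-9, mlt-10 and mlt-11 were named for failed molts after loss of their function. mlt-10 (WBGene00015646, chromosome II, 546705 to 552032, plus strand) founded a family of nematode molting proteins, and its promoter is used to report molts. It stood at 202, 346 and 366 CPM in the mutant and at 26.7, 192 and 22.97 CPM in wild type. Wild type replicate 2 was thus 7.74 times the mean of the other wild-type libraries and almost level with mutant replicate 1. Its log2 fold change was 1.92 ± 0.84 (SE; edgeR adjusted p = 0.110), and 3.62 without wild type replicate 2 (0.00235). With any other single library left out mlt-10 did not pass (edgeR adjusted p up to 0.261).

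mlt-9 (WBGene00008605, chromosome X, 15101786 to 15107797, minus strand) had 110, 286 and 264 CPM in the mutant and 12.6, 108 and 12.5 CPM in wild type. Mutant replicate 1 and wild type replicate 2 again nearly met, at a ratio of 1.02. The fitted log2 fold change was 2.31 ± 0.92 (SE; edgeR adjusted p = 0.0868), and 4.14 without wild type replicate 2 (0.00235). With any other single library left out mlt-9 did not pass (edgeR adjusted p up to 0.210).

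mlt-8 (WBGene00021095, chromosome II, 569210 to 572110, minus strand) lies near mlt-10 on the chromosome and had 217, 441 and 424 CPM in the mutant and 29.1, 186 and 48.3 CPM in wild type. It was the only one of the 10 genes for which wild type replicate 1 was the lowest library of all. The log2 fold change was 2.04 ± 0.70 (SE; edgeR adjusted p = 0.0569), and 3.23 without wild type replicate 2 (0.00254). mlt-8 also passed without unc-30(ok613) replicate 1 (edgeR adjusted p = 0.0494), but not with any other single library left out (up to 0.146).

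mlt-11 encodes a secreted protein with Kunitz-type protease inhibitor domains (WBGene00012186, chromosome V, 20667205 to 20678537, plus strand). It had 298, 525 and 769 CPM in the mutant and 51.3, 205 and 16.8 CPM in wild type, so that the groups did not overlap and the wild-type libraries spanned 12.2-fold. On the log2 scale the fold change was 2.55 ± 0.87 (SE; edgeR adjusted p = 0.0564), and 3.97 without wild type replicate 2 (0.00467). With any other single library left out mlt-11 did not pass (edgeR adjusted p up to 0.180).

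nas-36 and nas-37 encode secreted astacin metalloproteases that are needed to shed the old cuticle. nas-36 (WBGene00003552, chromosome I, 7527224 to 7531715, plus strand) had 4.18, 5.67 and 5.68 CPM in the mutant and 6.88, 15.8 and 20.1 CPM in wild type. It was the only one of the 10 genes that was highest in wild type replicate 3, the library in which 8 of the others were lowest. The means were 5.18 ± 0.863 and 14.3 ± 6.74 CPM (SD, n = 3 each), and the gene fell by 1.46 ± 0.41 on the log2 scale (SE; edgeR adjusted p = 0.0234). The call was lost without unc-30(ok613) replicate 1, 2 or 3 or wild type replicate 3 (adjusted p = 0.0639 to 0.0835), where the log2 fold change was -1.13 to -1.46.

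nas-37 (WBGene00003553, chromosome X, 9944844 to 9949063, minus strand) had 39.9, 77.2 and 77.9 CPM in the mutant and 26.0, 53.2 and 18.5 CPM in wild type. The groups overlapped through wild type replicate 2. The log2 fold change was 0.998 ± 0.43 (SE; edgeR adjusted p = 0.0993), and 1.55 without wild type replicate 2 (0.0125). With any other single library left out nas-37 did not pass (edgeR adjusted p up to 0.248). Counts of nas-37 were 9.55, 13.6 and 13.7 times those of nas-36 in the mutant and 3.78, 3.36 and 0.920 times in wild type, a difference of 2.42 on the log2 scale (two-sided exact permutation p = 0.1, the smallest possible, and 0.1 adjusted over the 2 ratios). This ratio too was chosen after seeing the data, and its p-value follows from the lack of overlap alone. The wild-type ratios spread widely, and without wild type replicate 3 the difference was 1.77.

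**Figure D3:**
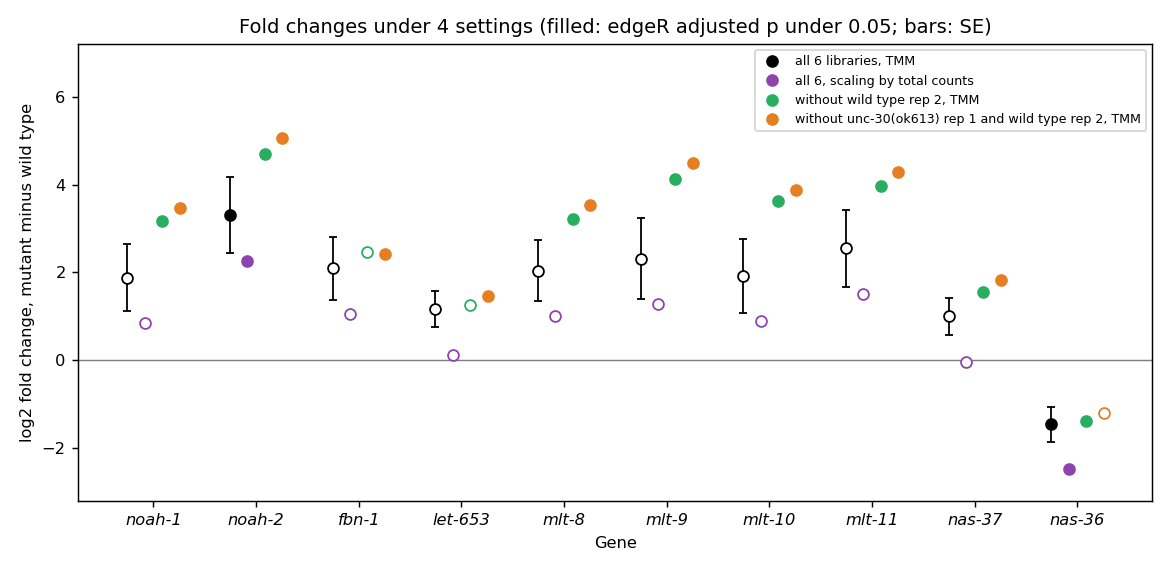
Log2 fold change of each gene, mutant minus wild type, with all libraries and TMM scaling (black, bars are SE), with scaling by total counts (purple), without wild type replicate 2 (green) and without both unc-30(ok613) replicate 1 and wild type replicate 2 (orange); filled points have an edgeR adjusted p under 0.05. With all libraries and TMM scaling noah-2 (3.30) and nas-36 (-1.46) are filled, and in the orange setting all except nas-36 are. The libraries left out in green and orange were picked by the levels of these genes.

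Within wild type, the 10 genes varied more between libraries than most genes. The highest wild-type library was 2.56 to 12.2 times the lowest (median 8.44), where the median gene tested, among those with no 0 in wild type, spanned 1.71-fold. In the mutant the span was 1.36-fold to 2.86-fold (median 2.02), against a median of 1.56-fold over genes with no 0 there. Wild type replicate 2 was the highest wild-type library for 8 of the 10 genes, against 30.2% of all genes, and exceeded the next by over 2-fold for 7, against 4.98%. Mutant replicate 1 was the lowest mutant library for 9 of the 10, against 41.8%. Mutant replicate 1 and wild type replicate 2 came close to each other, with a median ratio of 1.11 over the 10 genes, and the ratio was 0.264 for nas-36 and 3.23 for fbn-1. Of all counts, the 10 genes together took 0.110%, 0.204% and 0.218% in the mutant libraries and 0.0391%, 0.157% and 0.0252% in the wild-type ones, so on unscaled totals wild type replicate 2 lay above mutant replicate 1.

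**Figure D4:**
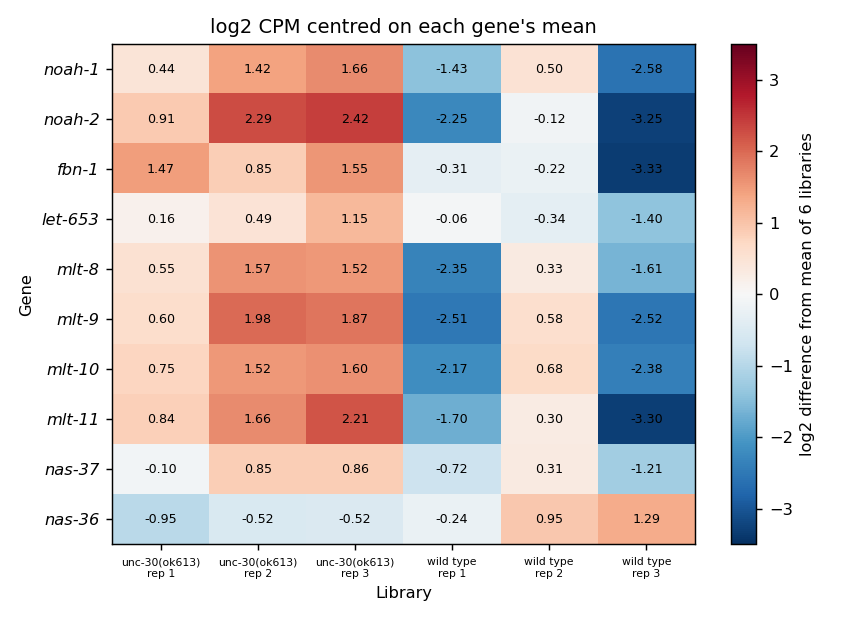
Log2 CPM of each gene in each library, centred on the gene's mean over the 6 libraries (red above, blue below the mean). mlt-9 and mlt-10 have nearly the same profile, with 0.58 and 0.68 in wild type replicate 2 and -2.52 and -2.38 in replicate 3, whereas nas-36 reads 1.29 in wild type replicate 3.

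The likeness of the profiles was measured as the root-mean-square difference of centred log2 CPM over the 6 libraries, where a smaller value means a closer match. mlt-9 and mlt-10 were the closest pair of the 10 genes (0.27), followed by noah-1 with mlt-10 (0.35), mlt-8 with mlt-10 (0.36) and noah-2 with mlt-11 (0.40). The related pair noah-1 and noah-2 stood at 0.72, and nas-36 and nas-37 at 1.38. nas-36 lay 1.38 to 2.76 from the others and was the most distant gene for all of them except nas-37, which lay farthest from noah-2 (1.43), and the median over all 45 pairs was 0.99. Outside the 10 genes, the nearest to their mean profile were the C-type lectin gene clec-238 (0.13), T10B5.10 (0.17), the collagen gene col-99 (0.19), eat-20 (0.19) and the kinase gene src-2 (0.20). These values share libraries and scaling, and they describe 6 points each.

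Per kilobase of exon, mlt-8 was the most abundant of the 10 genes in both groups, at 326 ± 113 CPM per kilobase in the mutant and 79.3 ± 77.2 in wild type (SD, n = 3). In the mutant it was followed by noah-2 (279), mlt-10 (130), mlt-9 (105), noah-1 (76.4), mlt-11 (54.2), nas-37 (25.6), fbn-1 (6.32), let-653 (5.44) and nas-36 (2.29). This order held in all 3 mutant libraries for each neighbouring pair except fbn-1 and let-653, but the ranges of neighbours overlapped, except between nas-37 and fbn-1 and between let-653 and nas-36. In wild type the order was mlt-8, mlt-10, noah-2, mlt-9, noah-1, nas-37, mlt-11, nas-36, let-653 and fbn-1, from 79.3 down to 1.48 CPM per kilobase. There the ranges of all neighbours overlapped. noah-2 thus stood above mlt-10 in each mutant library and below it in 2 of the 3 wild-type libraries.

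Other genes of the matrix and the molt, from lists chosen with earlier results of these data known, were read from the same fit, and their calls are set against the 17.1% higher and 20.9% lower among all genes. Of 7 other pre-cuticle genes, 4 rose and 3 did not pass, with a median log2 fold change of 1.94. lpr-3, a lipocalin of the pre-cuticle, had 195, 532 and 580 CPM in the mutant and 21.5, 88.1 and 8.43 CPM in wild type (log2 fold change 3.47 ± 0.91, SE; edgeR adjusted p = 0.0235). sym-1, which encodes a leucine-rich repeat protein, had a log2 fold change of 2.75 (0.0152). Of the 6 collagen genes of the cuticle furrows, 5 rose and dpy-10 (2.09) did not pass, with a median of 3.29. dpy-3 went from a wild-type range of 6.61 to 55.3 CPM to 121 to 466 CPM in the mutant, and dpy-8 rose by 3.32 on the log2 scale. All 6 were more than 2-fold higher in wild type replicate 2 than in the other wild-type libraries. The pre-cuticle calls fell to 0 without unc-30(ok613) replicate 3 or wild type replicate 1, to 1 without unc-30(ok613) replicate 2 and to 2 without wild type replicate 3. In each of these settings 4 were higher at an unadjusted p under 0.05. Without wild type replicate 1, 13.3% of all genes passed as higher and 17.5% as lower, and without wild type replicate 3, 10.9% and 12.9%. Without the expression filter 1 pre-cuticle gene and none of the furrow collagens passed the edgeR test (3 furrow collagens at an unadjusted p under 0.05). The furrow list also lost its calls without unc-30(ok613) replicate 2 or 3 or wild type replicate 1, where none of the 6 passed the edgeR test. Without wild type replicate 3, 1 passed. At an unadjusted p under 0.05, 5, 5, 3 and 5 of the 6 were higher in these settings, in that order. The shares of all genes were 17.9%, 17.7%, 19.5% and 18.4%.

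Of 25 tested cuticlin genes, which encode ZP proteins of the cuticle, 6 rose, 2 fell and 17 did not pass (median 0.53). cut-6 and cutl-29 rose by 2.74 and 2.39 on the log2 scale, and cutl-12 and cutl-18 fell with -2.28 and -1.56. Without unc-30(ok613) replicate 2 or 3 or wild type replicate 3, 2 to 4 of 29 tested cuticlins rose, where 9.01% to 10.9% of all genes did. Without wild type replicate 2, 12 of 29 rose, against 19.4% of all genes. Of 8 tested relatives of mlt-10, mltn-5 rose (2.47, at 2.12 CPM or less in every library) and 7 did not pass (median 0.53). That call was lost without unc-30(ok613) replicate 3 or wild type replicate 3. Without wild type replicate 2, 3 of 8 relatives rose and 1 fell, against 19.4% and 21.8% of all genes. The summed level of the 12 relatives that could be matched ran from 12.9 to 55.6 CPM over the 6 libraries.

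Among 9 other proteases and inhibitors linked to molting, 1 rose, 2 fell and 6 did not pass. The cathepsin L gene cpl-1 rose (1.14), while the astacin genes nas-7 (-1.48) and nas-38 (-1.54) fell. On the same list nas-6 (-0.42) and dpy-31 (0.30) did not pass. nas-7 had 7.27, 6.49 and 6.66 CPM in the mutant and 9.61, 18.5 and 28.9 CPM in wild type. nas-38 had 5.15, 4.15 and 4.17 CPM against 4.10, 16.7 and 18.4 CPM, so its groups overlapped through wild type replicate 1. Without unc-30(ok613) replicate 2 or 3 none of the 9 passed in edgeR, though 1 was higher and 1 lower at an unadjusted p under 0.05, and without wild type replicate 3 none passed as lower. mlt-7, a peroxidase gene of the cuticle, was likewise lower (-1.60 ± 0.37, SE; edgeR adjusted p = 0.0113), at 15.1 to 17.0 CPM against 29.6, 36.7 and 77.0 CPM. nas-36, nas-7, nas-38 and mlt-7 were each highest in wild type replicate 3. They were put together after their falls were seen, and the share of all genes highest in that library is not given here. On the same list of 8 crosslinking and collagen processing genes, pdi-2 and dpy-18, which encode subunits of the collagen prolyl 4-hydroxylase, rose by 2.29 and 1.63 on the log2 scale, and 5 genes did not pass. No gene of that list passed as higher in edgeR without unc-30(ok613) replicate 2 or 3 or wild type replicate 3, where 2 were higher at an unadjusted p under 0.05.

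Of 12 genes of molting kinases, trafficking and secretion, the kinase gene nekl-3 rose (1.08), its relative nekl-2 fell (-1.15) and 10 did not pass. No gene of the list passed in edgeR without unc-30(ok613) replicate 2 (3 higher and 1 lower at an unadjusted p under 0.05) or wild type replicate 3 (1 higher and 2 lower), and only 1, as lower, without unc-30(ok613) replicate 3. Without wild type replicate 2, 6 were higher and 1 lower, against 19.4% and 21.8% of all genes. Of 9 regulators of the molting cycle, grh-1 (2.20) and myrf-1 (1.93) rose and 7 did not pass (median 0.65). grh-1 encodes a Grainyhead factor and myrf-1 a membrane-bound factor that drives larval progression. lin-42, the period relative that times molts, had 274, 733 and 654 CPM in the mutant and 36.7, 233 and 38.9 CPM in wild type, and nhr-23, a nuclear receptor needed for molting, had 48.8 to 60.1 CPM against 28.4 to 43.4 CPM. Without wild type replicate 2, 6 regulators passed as higher, against 19.4% of all genes. Without unc-30(ok613) replicate 2 or 3 none did in edgeR, against 9.42% and 9.01%. Neither lin-42 nor nhr-23 passed with all libraries (edgeR adjusted p = 0.0521 and 0.0543), and both were named after their values were seen, for their place in the cycle. With scaling by total counts, 2 of 7 pre-cuticle genes, 3 of 6 furrow collagens and 3 of 25 cuticlins passed as higher, against 3.43% of all genes. None of the other 5 lists had a higher call. Lower calls there were 1 of 7 pre-cuticle genes, 6 of 25 cuticlins, 6 of 9 proteases or inhibitors and 5 of 8 crosslinking genes. They were also 5 of 12 trafficking genes, 1 of 9 regulators and 1 of 8 mlt-10 relatives, and 56.4% of all genes passed as lower.

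Genes that mark stages and tissues also differed between the libraries. Of 11 genes of the adult cuticle and yolk none passed the edgeR test, also at an unadjusted p under 0.05, and DESeq2 called 1 as higher. limma-voom called 2 as higher and 4 as lower, against 18.5% and 20.4% of all genes. With the replicate number as a block edgeR called 2 as higher and 6 as lower, against 22.3% and 25.6%. With scaling by total counts it called 1 as lower, against 56.4%. Their summed level was 14122 CPM in mutant replicate 1, against 2247 and 2383 CPM in replicates 2 and 3, and 26946, 8111 and 13856 CPM in wild type, in order of replicate number. Wild type replicate 2 thus had the lowest summed yolk and adult cuticle level of its group and the highest level of 8 of the 10 molting genes. Mutant replicate 1 had the highest such sum of its group and the lowest level of 9 of the molting genes. The other libraries did not keep this inverse order. Wild type replicate 1 had a higher adult and yolk sum than replicate 3, and also a higher sum of the 10 genes (263 against 183 CPM). Mutant replicate 1 was close to wild type replicate 3 in the first sum but had 1443 CPM of the 10 genes. The vitellogenin gene vit-6 had 4354, 233 and 319 CPM in the mutant and 9114, 2562 and 5097 CPM in wild type. The adult collagen genes bli-1 and bli-2, on the same list and chosen after their values were seen, went the other way. bli-1 had 213, 483 and 625 CPM in the mutant and 45.7, 271 and 44.4 CPM in wild type. bli-2 had 213, 839 and 680 CPM against 36.4, 304 and 44.2 CPM. Within their groups both were highest in wild type replicate 2 and lowest in mutant replicate 1. Without unc-30(ok613) replicate 1 and wild type replicate 2, 9 of these 11 genes were lower in the mutant and 2 higher, against 26.6% and 23.7% of all genes. Without unc-30(ok613) replicate 1 alone 9 were lower, against 21.0% of all genes. The part of these levels in the results was not tested.

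Epidermal markers, which stand for the tissue that makes most of the cuticle, summed to 994 to 1270 CPM in the mutant and 711 to 843 CPM in wild type. Of 6 tested, dpy-7 rose (3.28, also a furrow collagen), elt-1 and ajm-1 fell (-0.94 and -0.74) and 3 did not pass, and col-10 was at or near 0 in every library. The sum thus does not stand for the list as a whole. dpy-7 held 83.7 to 361 CPM of it in the mutant and 5.64 to 62.2 CPM in wild type. vab-10, its largest part, overlapped between the groups, at 509 to 798 CPM against 511 to 534 CPM. Body wall muscle markers summed to 13285 to 18886 CPM against 4799 to 8282 CPM, with 5 of 7 higher, and intestinal markers to 8611 to 13667 CPM against 2464 to 3797 CPM, with 3 of 8 higher. Most of the intestinal sum came from those 3, asp-1, cpr-1 and act-5, so it does not stand for its list. Among the 5 that did not pass, elt-2 (-0.29), elt-7 (-0.28) and pept-1 (-0.49) lay below 0, and ges-1 (0.67) and ifb-2 (0.39) above. Neuronal markers summed to 234 to 318 CPM against 160 to 174 CPM. Of 8 tested, snb-1 rose (1.10), snt-1 fell (-0.84) and 6 did not pass. Most of the neuronal sum was snb-1, at 183.6 to 255.1 CPM in the mutant and 101.0 to 114.8 CPM in wild type. That sum thus does not stand for its list either. Pharyngeal markers summed to 360 to 563 CPM against 252 to 306 CPM, with 2 of 6 higher and 4 that did not pass. Germline sums overlapped, at 2349 to 4646 CPM against 2451 to 3939 CPM. Of 60 tested sperm genes 15 fell, led by spe-11 (-3.75), a share near the 20.9% of all genes. With scaling by total counts 42 of the 60 passed as lower, against 56.4% of all genes. When single libraries were left out 10 to 20 did so, where 9.50% to 21.8% of all genes did. The sums of the sperm genes overlapped (2559 to 5374 CPM against 2958 to 5545 CPM). All of these marker directions are relative to the TMM reference. With scaling by total counts no epidermal, muscle, pharyngeal or neuronal marker passed as higher in edgeR. Of 8 intestinal markers 2 did, against 3.43% of all genes. Lower calls there were 5 of 6 epidermal, 3 of 8 intestinal, 2 of 7 muscle, 3 of 6 pharyngeal and 6 of 8 neuronal markers, against 56.4% of all genes. Their part in the levels of the molting genes was not tested.

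**Figure D5:**
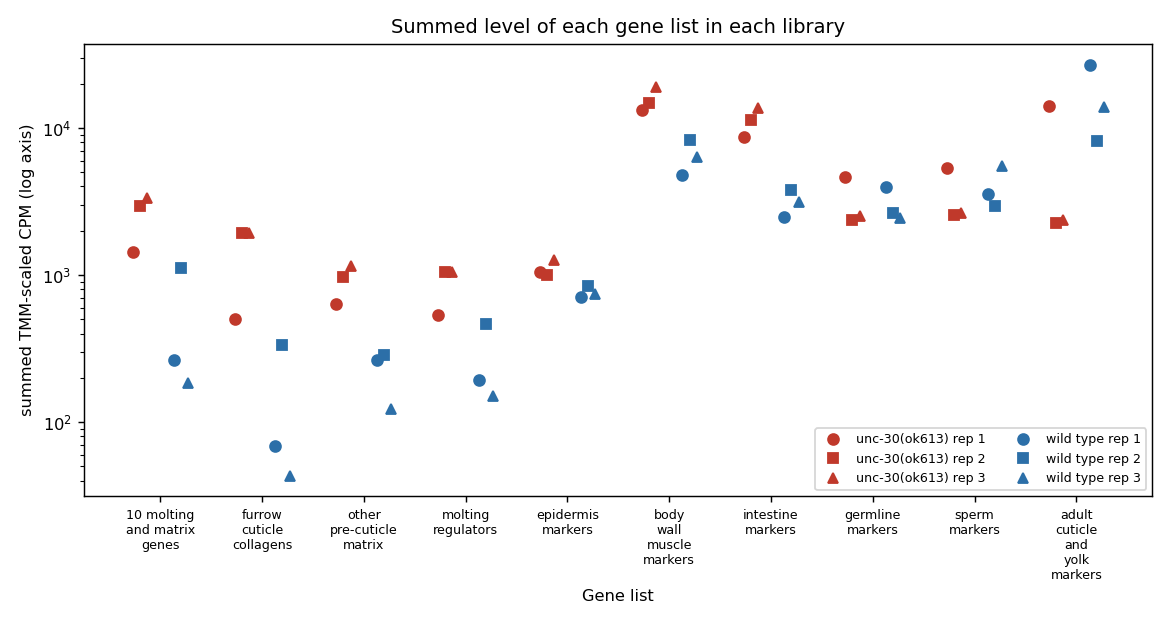
Summed TMM-scaled CPM (log axis) of the 10 molting and matrix genes and of 9 gene lists in each library, red for unc-30(ok613) and blue for wild type, with symbols for the replicate number. Mutant replicate 1 lies at 1443 CPM and wild type replicate 2 at 1121 CPM for the 10 genes, between the other libraries of each group, and for adult cuticle and yolk genes mutant replicate 1 lies with wild type.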

How the data were processed

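Each deposited file holds the raw counts of 1 library per WormBase gene. The submitters' processing notes list HTSeq and DESeq2 without versions. No source used here gives the aligner, build, annotation or strand setting. Symbols and coordinates (1-based) are from Ensembl release 115 of WBcel235. Exons of 5 of the 10 genes overlap another gene, over 21 to 202 bases. Exon length is the union over transcripts.

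edgeR 4.0.16 (R 4.3.3) was run on all 6 libraries with its default expression filter, TMM factors (0.654 to 0.760 in the mutant, 1.38 to 1.49 in wild type), a robust quasi-likelihood fit and group as the only term. It was checked on simulated data in which few genes changed, equally in both directions, so that check does not test the TMM scaling of these data. The SE is the log2 fold change divided by the square root of F. Adjusted p-values cover all genes tested. DESeq2 1.42.0 and limma-voom (limma 3.58.1), other scalings, no filter, removed length trends, a replicate block and left-out libraries were alternatives. The 10 genes, the 16 other lists and the rule for naming genes (up to 2 largest rises and 2 largest falls per list, or the most abundant gene where none passed, and the 5 genes nearest in profile) were chosen with earlier results of these data known. Centred profiles used a prior count of 2. Floors and intervals are not used. Sequences were not analysed here.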

Additional observations from a re-analysis of the deposited data

How the results depend on the processing

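Of the 14 alternatives to the main test, every one kept 9 of the 10 genes above 0 and nas-36 below 0, except scaling by total counts, where nas-37 turned to -0.0379 on the log2 scale (edgeR adjusted p = 0.943). The number of the 10 genes that passed was 2 in the main test, 9 with DESeq2 (42.1% of all genes), 8 with limma-voom (38.9%), 6 with length trends removed (37.7%), and 9 without unc-30(ok613) replicate 1 and wild type replicate 2 (50.3%). The number of all genes that passed was 5511, and 8673 with scaling by total counts. Leaving out 1 library at a time gave 0 to 8 of the 10 genes, 2791 to 6154 of all genes and a median log2 fold change of the 10 genes of 1.53 to 3.19. The 0 came without unc-30(ok613) replicate 2 or 3, where 5 and 3 of the 10 genes had an unadjusted edgeR p under 0.05. The median was 3.50 without both libraries named above, which were picked by the levels of these genes. noah-2 also lost its call with no expression filter (adjusted p = 0.117, where 24.4% of all genes passed), and nas-36 with limma-voom (0.0509) and with length trends removed (0.0630). The ratios of noah-2 to noah-1 and of nas-37 to nas-36 and their alternatives were chosen after seeing the data, and every left-out library kept their direction. The cause of these changes was not tested. All 5 genes nearest in profile were the same with a prior count of 0.5.

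With the replicate number as a block, 8 of the 10 genes passed (7 higher, 1 lower) and 6943 of all genes (47.9%). The labels do not say that a number marks a shared culture or day. Deviations from the group means correlated by 0.46, 0.44 and -0.07 for replicates 1, 2 and 3, and mutant replicate 3 correlated best with wild type replicate 2, so the numbers were not taken to pair the libraries.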
